A study of Homo sapiens with 12 samples.

Results

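The genes described here are the epidermal growth factor receptor gene EGFR, 4 of its ligand genes (AREG, EREG, HBEGF and TGFA) and 5 genes of MAP kinase phosphatases (DUSP1, DUSP4, DUSP5, DUSP6 and DUSP10), 10 genes in all, of which 9 are among the 18417 genes measured. They come from a list, each represented by the probe set that carried its symbol alone and had the highest mean over 12 arrays. DUSP10 was chosen by its log2 differences from the control, which were positive with both treatments, so these are given as a description without a test. The other 8 measured genes were tested. No probe set was named AREG in the annotation used here, so no value is given for AREG, and the other 9 had a single probe set each. The RNA came from Calu-3 cells, a widely used established line of human airway epithelium, per the labels, while the notes on extraction speak of primary cultures. Cells on 6 arrays had been transfected with NC1, a scrambled control RNA, on 3 arrays with a small interfering RNA (siRNA) that targets SIN3A, and on 3 arrays with a synthetic mimic of miR-138, a microRNA. All cells had thus received an oligonucleotide by lipid transfection, and no untransfected cells are in the groups used here. The sources used here give neither doses nor harvest times, and only this line was used. In such bulk RNA fewer cells of a kind and less RNA per cell cannot be told apart. The labels number the NC1 arrays from 1 to 6, and arrays 1 to 3 are also compared apart from arrays 4 to 6, because the levels of many genes differed between these parts. Per the labels these are biological replicates, with no word on separate cultures. P-values therefore reflect only how these arrays vary, which may be technical.

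The receptor EGFR sits in the membrane of epithelial cells and is switched on by growth factors of the epidermal growth factor family. These ligands are made as membrane-bound precursors and shed by proteases, and in airway epithelium the receptor is known for its part in wound repair and mucus production. The active receptor signals through RAS and a chain of kinases that ends in ERK, while JNK and p38 stand at the end of other chains. ERK, JNK and p38 are MAP kinases. The phosphatases encoded by the DUSP genes take phosphate off both a threonine and a tyrosine of these kinases and so switch them off. Several DUSP genes and ligand genes are themselves targets of the pathway, which makes them part of feedback loops.

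The mimic copies a microRNA that pairs with messenger RNAs through its seed, bases 2 to 8. RefSeq holds the 5p strand of miR-138 at 2 loci with the same mature sequence, on GRCh38.p14 at chr3:44114234-44114256 and chr16:56858527-56858549, both on the plus strand. The labels do not say which strand the mimic carried. The sequence is shown because it is the agent of one treatment, and capitals mark the seed:
hsa-miR-138-5p: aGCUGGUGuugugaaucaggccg

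The stretches of 250 bases before the start site are shown for DUSP10, which stood higher with both treatments, and for DUSP1, DUSP6 and HBEGF, which differed between the parts of the control. They come from RefSeq on GRCh38.p14. All 4 lie on the minus strand and are printed 5′ to 3′ along the gene, at chr1:221742090-221742339 for DUSP10 (the more upstream of its start sites in RefSeq), chr5:172771196-172771445 for DUSP1, chr12:89352502-89352751 for DUSP6 and chr5:140346604-140346853 for HBEGF. Capitals mark matches to the motifs searched:
DUSP10: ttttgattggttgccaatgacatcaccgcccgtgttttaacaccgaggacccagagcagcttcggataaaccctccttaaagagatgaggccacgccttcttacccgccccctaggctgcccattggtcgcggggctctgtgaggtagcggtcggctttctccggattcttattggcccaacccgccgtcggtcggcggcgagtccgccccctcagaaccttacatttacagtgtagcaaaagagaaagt
DUSP1: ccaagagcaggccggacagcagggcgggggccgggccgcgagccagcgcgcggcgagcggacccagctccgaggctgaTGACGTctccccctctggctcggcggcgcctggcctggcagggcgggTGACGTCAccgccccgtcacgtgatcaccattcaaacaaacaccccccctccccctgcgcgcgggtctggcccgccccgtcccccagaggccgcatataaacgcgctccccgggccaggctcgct
DUSP6: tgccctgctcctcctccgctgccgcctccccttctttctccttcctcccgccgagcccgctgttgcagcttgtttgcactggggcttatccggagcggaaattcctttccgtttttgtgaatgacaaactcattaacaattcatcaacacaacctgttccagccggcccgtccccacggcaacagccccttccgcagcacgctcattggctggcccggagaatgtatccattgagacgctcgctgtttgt
HBEGF: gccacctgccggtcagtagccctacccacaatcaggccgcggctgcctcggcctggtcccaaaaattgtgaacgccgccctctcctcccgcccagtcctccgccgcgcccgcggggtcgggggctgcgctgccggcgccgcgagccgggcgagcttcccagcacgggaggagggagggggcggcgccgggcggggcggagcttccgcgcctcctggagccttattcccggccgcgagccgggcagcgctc

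RefSeq windows of 300 bases (250 before and 50 after a start site) were on hand for 8 of the 10 genes, 11 windows in all. They were searched on both strands for TGACGTCA, the cyclic AMP response element, for its core TGACGT, which every TGACGTCA also holds, for the AP-1 site TGANTCA and for the serum response element. TGACGTCA was found in the windows of AREG and DUSP1, 2 of 11, against 1.85% of all 35116 windows. In DUSP1 it began at position -125 from the start site, and a further TGACGT began at position -172. TGANTCA was found in 1 of 11 windows, at the more downstream start of EGFR, against 7.71% of all windows. No window of these genes held a serum response element (1.29% of all windows). A match is a run of letters and not a measured binding site.

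Medians of the arrays ran from 5.09 to 5.16, and correlations between arrays across genes from 0.967 to 0.995. SIN3A, the target of the siRNA and a reported target of miR-138, had a log2 difference from NC1 of -0.88 (SE 0.17, limma adjusted p = 0.0111) with the siRNA and -0.83 (SE 0.17, limma adjusted p = 0.0304) with the mimic. The siRNA's call did not hold without siRNA array 2 or 3, and that for the mimic without NC1 6 or any siRNA or mimic array (highest adjusted p = 0.0725 and 0.202) or with arrays centred on their median (-0.82, adjusted p = 0.0512). SIN3A itself stood higher on NC1 4 to 6 than on NC1 1 to 3 (0.58, SE 0.12, limma adjusted p = 0.00574). Its difference was -0.59 with the siRNA and -0.54 with the mimic against NC1 1 to 3, and -1.18 and -1.13 against NC1 4 to 6, each called by limma (adjusted p = 0.0104, 0.0113, 1.24e-05 and 4.27e-05). Of 8 epithelial markers 7 lay above the upper quartile of all gene levels, against 0 of 6 fibroblast, 0 of 4 endothelial, 1 of 2 measured basal (KRT14) and 1 of 4 measured leukocyte markers (LYZ, which airway glands also make). A gene was called when its adjusted p was under 0.05, and a log2 difference of 1 is a doubling of the level.

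DUSP10 encodes a phosphatase known for acting on p38 and JNK. On NC1 arrays 1 to 6 its log2 level (probe set 7924450) was 6.52, 6.17, 6.41, 6.47, 6.33 and 6.18. It was 6.64, 7.11 and 6.83 with the SIN3A siRNA and 7.05, 7.03 and 7.05 with the miR-138 mimic. Every treated array lay above every NC1 array, and the parts of the control overlapped. The siRNA arrays were spread more widely (SD 0.24, n = 3) than the mimic arrays (SD 0.01, n = 3). The level stood 1.43-fold higher than NC1 with the siRNA (log2 difference 0.51) and 1.62-fold higher with the mimic (log2 difference 0.70). Set against NC1 1 to 3, then NC1 4 to 6, the log2 differences were 0.49 and 0.53 for the siRNA and 0.68 and 0.72 for the mimic. DUSP10 thus stood almost level between the parts of the control (log2 difference -0.04, NC1 4 to 6 minus NC1 1 to 3). The mimic arrays were 0.18 higher than the siRNA arrays on the log2 scale, with overlapping groups, and between 0.07 and 0.31 with 1 array left out. These values chose the gene and are not a test of it. With 1 array left out at a time the difference from NC1 lay between 0.39 and 0.62 for the siRNA and between 0.66 and 0.73 for the mimic.

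The 5 genes whose log2 levels followed DUSP10 most closely over the 12 arrays were NRBP1 (Pearson r = 0.958), WDR3 (0.945), DPF2 (0.94), FBXO28 (0.927) and NMT1 (0.921). NMT1 encodes an enzyme that attaches a fatty acid to proteins, and DPF2 a subunit of a chromatin remodelling complex. The log2 differences from NC1 were 0.43 and 0.65 for NRBP1 with siRNA and mimic, 0.25 and 0.42 for WDR3, 0.46 and 0.48 for DPF2, 0.38 and 0.57 for FBXO28, and 0.20 and 0.21 for NMT1. Since these genes were found by their likeness to a gene chosen for its rise, their rise is part of the choice. On NC1 1 to 6 NRBP1 was at 5.98, 5.59, 5.84, 5.87, 5.81 and 5.56, lowest on NC1 2 and NC1 6 as DUSP10 was. These arrays were among the 12 by which NRBP1 was found, so this likeness is part of the choice too.

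**Figure D1:**
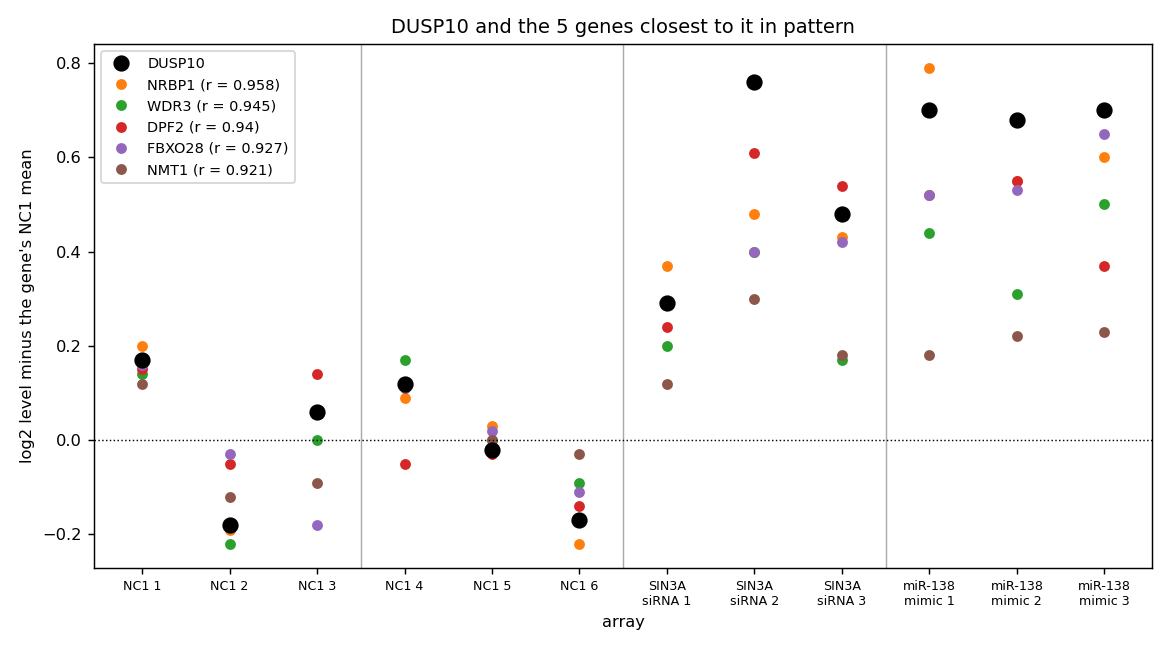
Log2 level minus the gene's own NC1 mean (y axis) on each of the 12 arrays (x axis) for DUSP10 (black) and the 5 genes with the highest Pearson correlation with it (coloured). DUSP10 lay from 0.29 to 0.76 above its NC1 mean with the siRNA and near 0.70 with the mimic, and the other genes rose on the same arrays.

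EGFR encodes the receptor itself. On NC1 1 to 3 its log2 level (probe set 8132860) was 5.69, 5.69 and 5.81, and on NC1 4 to 6 it was 5.58, 5.57 and 5.60. It was 5.67, 5.79 and 5.69 with the siRNA and 5.77, 5.69 and 5.69 with the mimic. NC1 4 to 6 lay lowest, and the other groups overlapped. On every array given here as 5.69 the deposited value was the same to the last digit (5.68841), for a reason not tested. These arrays lay in NC1 1 to 3 and in both treated groups, so part of this overlap rests on equal values. The fit took these values as separate measurements, so its SEs and intervals may be too narrow. The log2 difference from NC1 was 0.06 with each treatment (SE 0.08, limma adjusted p = 0.761 for the siRNA and 0.845 for the mimic), with intervals of -0.10 to 0.23 and -0.10 to 0.22.

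HBEGF encodes heparin-binding EGF-like growth factor, a ligand that is shed from the cell surface. Its log2 level (probe set 8114572) was 6.06, 5.85 and 6.17 on NC1 1 to 3 but 5.25, 5.06 and 5.36 on NC1 4 to 6. It was 5.86, 6.05 and 6.05 with the siRNA and 6.20, 6.10 and 6.07 with the mimic. The NC1 4 to 6 arrays stood apart below all others, and both treated groups overlapped with NC1 1 to 3. NC1 4 to 6 held 57.4% of the level of NC1 1 to 3 (log2 difference -0.80, SE 0.11, limma adjusted p = 0.000129), the largest difference between the parts among the 9 genes. The comparison with the treatments turned on this. Against NC1 4 to 6 HBEGF was 1.69-fold higher with the siRNA (0.76 on the log2 scale, SE 0.11, limma adjusted p = 0.000164) and 1.87-fold higher with the mimic (0.90, SE 0.11, limma adjusted p = 7.9e-05). Against NC1 1 to 3 it was not called with the siRNA (-0.04, limma adjusted p = 0.889) or the mimic (0.10, limma adjusted p = 0.640). Against all 6 NC1 arrays it was called with neither (0.36, limma adjusted p = 0.423, and 0.50, limma adjusted p = 0.340). With array weights the mimic was called (0.65, limma adjusted p = 0.0348). The calls against NC1 4 to 6 and between the parts held whichever array was left out.

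EREG encodes epiregulin, a ligand of EGFR and of its relative ERBB4. Its log2 level (probe set 8095728) was 9.30, 9.21 and 9.12 on NC1 1 to 3 and 9.43, 9.48 and 9.41 on NC1 4 to 6. It was 9.15, 9.22 and 9.13 with the siRNA and 9.66, 9.53 and 9.59 with the mimic. In order of the means, the siRNA arrays (9.16 ± 0.05, SD, n = 3) and NC1 1 to 3 (9.21 ± 0.09, SD, n = 3) overlapped, NC1 4 to 6 came next (9.44 ± 0.04, SD, n = 3), and the mimic arrays lay highest (9.59 ± 0.07, SD, n = 3). Mimic arrays held 1.35-fold more EREG RNA than siRNA arrays (0.43 on the log2 scale, SE 0.10, limma adjusted p = 0.0455). That call was lost without NC1 1, NC1 6 or any siRNA or mimic array (highest adjusted p = 0.169), with arrays centred on their median (adjusted p = 0.0584), and with the array set as a block (0.20, adjusted p = 0.516). Against all NC1 arrays the mimic was at 0.27 (SE 0.09, limma adjusted p = 0.193, exact two-sided permutation p = 0.0238) and the siRNA at -0.16 (limma adjusted p = 0.399). The mimic was called higher than NC1 1 to 3 (0.38, SE 0.08, limma adjusted p = 0.00814) but not than NC1 4 to 6 (0.15, limma adjusted p = 0.512). The siRNA was called lower than NC1 4 to 6 (-0.27, SE 0.08, limma adjusted p = 0.0419), a call that was lost with a further quantile normalization (-0.21, adjusted p = 0.0851), with arrays centred on their median (-0.26, adjusted p = 0.0593), and without any array other than NC1 1, 2 or 3 (highest adjusted p = 0.150). The siRNA was not called against NC1 1 to 3 (-0.05, limma adjusted p = 0.819).

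TGFA encodes transforming growth factor alpha, a ligand that binds EGFR alone. On probe set 8052872 its log2 level was 6.05, 6.08 and 5.84 on NC1 1 to 3 and 5.96, 5.75 and 5.64 on NC1 4 to 6. It was 6.31, 6.26 and 6.37 with the siRNA and 6.07, 6.05 and 6.08 with the mimic. The siRNA arrays lay above every other array. The mimic arrays overlapped with NC1 1 to 3, and the parts of the control overlapped. TGFA rose 1.35-fold with the siRNA (0.43 on the log2 scale, SE 0.10, limma adjusted p = 0.0218, exact two-sided permutation p = 0.0119, the smallest that 84 splits allow). The log2 difference was 0.33 against NC1 1 to 3 (SE 0.10, limma adjusted p = 0.0634, called at 0.0460 without NC1 6 and at 0.0381 with dim probe sets left out) and 0.53 against NC1 4 to 6 (SE 0.10, limma adjusted p = 0.00156). The call against all NC1 arrays was lost without siRNA array 1, 2 or 3 (highest adjusted p = 0.115). With the mimic the difference was 0.18 (interval -0.02 to 0.39, limma adjusted p = 0.508), and between mimic and siRNA it was -0.25 (interval -0.48 to -0.01, SE 0.11, limma adjusted p = 0.337) in groups that did not overlap. With the array set as a block the difference between mimic and siRNA was -0.04 (limma adjusted p = 0.953).

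**Figure D2:**
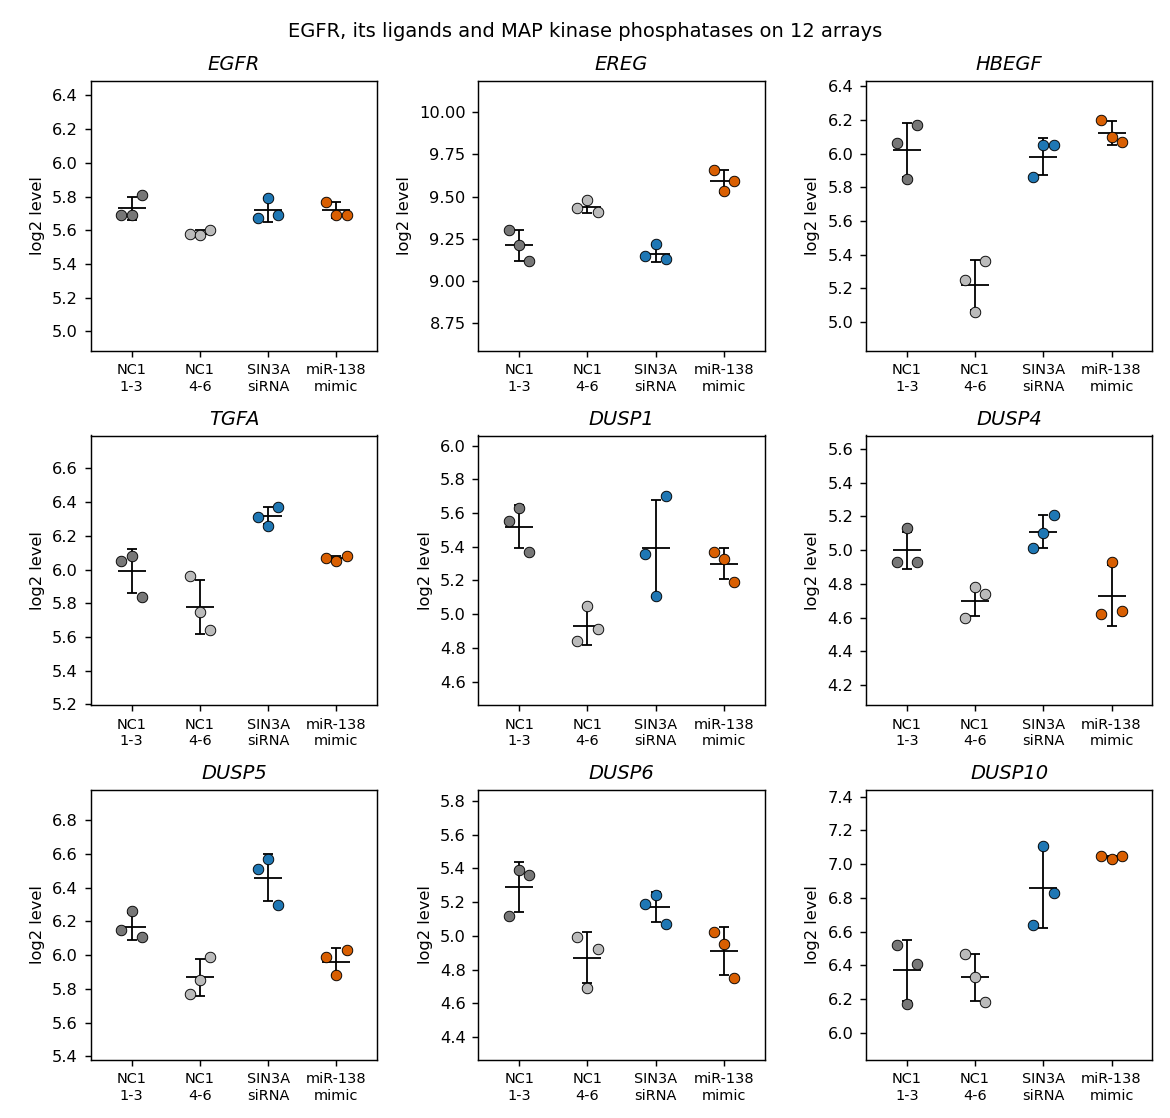
Log2 level (y axis, the same span in every panel) of the 9 measured genes on the 12 arrays, by group (x axis). Points are arrays, and bars are the mean and SD of 3 arrays. The NC1 4 to 6 arrays of HBEGF lay between 5.06 and 5.36, below all other arrays, and the treated arrays of DUSP10 lay above all NC1 arrays.

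DUSP5 encodes a nuclear phosphatase of ERK. Its log2 level (probe set 7930413) was 6.15, 6.26 and 6.11 on NC1 1 to 3 and 5.77, 5.85 and 5.99 on NC1 4 to 6. It was 6.51, 6.57 and 6.30 with the siRNA and 5.99, 5.88 and 6.03 with the mimic. The siRNA arrays lay above all others, the closest being NC1 2. DUSP5 rose 1.35-fold with the siRNA (0.44 on the log2 scale, SE 0.11, limma adjusted p = 0.0338, exact two-sided permutation p = 0.0238). The log2 difference was 0.29 against NC1 1 to 3 (SE 0.10, limma adjusted p = 0.0981) and 0.59 against NC1 4 to 6 (SE 0.10, limma adjusted p = 0.000691). The call against all NC1 arrays was lost without any siRNA array, without NC1 4, 5 or 6 and without mimic array 1 or 3 (highest adjusted p = 0.170), and with a further quantile normalization (0.41, adjusted p = 0.0515). With the mimic DUSP5 was at -0.06 (interval -0.29 to 0.17, limma adjusted p = 0.905). Between mimic and siRNA it was at -0.50 (SE 0.12, limma adjusted p = 0.0599) in groups that did not overlap, a difference called with dim probe sets left out (adjusted p = 0.0413), with array weights (adjusted p = 0.00621), or without NC1 2, 3 or 4 (adjusted p = 0.0464, 0.0453 and 0.0398). With the array set as a block this difference was -0.20 (limma adjusted p = 0.615). NC1 4 to 6 lay below NC1 1 to 3 by -0.30 on the log2 scale (limma adjusted p = 0.0614), which was called without NC1 6 (-0.36, adjusted p = 0.0350), with further quantile normalization (-0.34, adjusted p = 0.0287), with dim probe sets left out (adjusted p = 0.0380) and with array weights (-0.37, adjusted p = 0.0132).

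DUSP1 encodes the phosphatase MKP-1, an early response gene. On probe set 8115831 its log2 level was 5.55, 5.63 and 5.37 on NC1 1 to 3 and 4.84, 5.05 and 4.91 on NC1 4 to 6. It was 5.36, 5.11 and 5.70 with the siRNA and 5.37, 5.33 and 5.19 with the mimic. The siRNA arrays spanned the range of NC1 1 to 3 and below (SD 0.29, n = 3), and all treated arrays lay above NC1 4 to 6. NC1 4 to 6 lay at 66.8% of NC1 1 to 3 (log2 difference -0.58, SE 0.13, limma adjusted p = 0.00659). The siRNA was called higher than NC1 4 to 6 (0.46, SE 0.13, limma adjusted p = 0.0257), but not without siRNA array 1 or 3 or without NC1 4 or 6 (highest adjusted p = 0.143). Against NC1 1 to 3 the sign was opposite (-0.13, limma adjusted p = 0.653). The mimic gave 0.37 against NC1 4 to 6 (limma adjusted p = 0.162) and -0.22 against NC1 1 to 3 (limma adjusted p = 0.352). Against all NC1 arrays DUSP1 was at 0.17 with the siRNA and 0.08 with the mimic (limma adjusted p = 0.721 and 0.928).

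DUSP6 encodes a phosphatase of ERK in the cytoplasm. Its log2 level (probe set 7965335) was 5.12, 5.39 and 5.36 on NC1 1 to 3 and 4.99, 4.69 and 4.92 on NC1 4 to 6. It was 5.19, 5.24 and 5.07 with the siRNA and 5.02, 4.95 and 4.75 with the mimic. The mimic arrays overlapped with NC1 4 to 6 and the siRNA arrays with NC1 1 to 3. NC1 4 to 6 lay below NC1 1 to 3 (log2 difference -0.42, SE 0.11, limma adjusted p = 0.0185). With 1 array left out the difference lay between -0.51 and -0.34, and it was not called without NC1 2, 3 or 5 (highest adjusted p = 0.117). The mimic was called lower than NC1 1 to 3 (-0.38, SE 0.11, limma adjusted p = 0.0375) and stood level with NC1 4 to 6 (0.04, limma adjusted p = 0.965). That call was lost without NC1 2 or 3, siRNA array 1, or mimic array 2 or 3 (highest adjusted p = 0.176). Against all NC1 arrays DUSP6 was at 0.09 with the siRNA and -0.17 with the mimic (limma adjusted p = 0.820 and 0.722).

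DUSP4 encodes a nuclear phosphatase of ERK and JNK. On probe set 8150076 its log2 level was 4.93, 5.13 and 4.93 on NC1 1 to 3 and 4.60, 4.78 and 4.74 on NC1 4 to 6. It was 5.01, 5.10 and 5.21 with the siRNA and 4.62, 4.93 and 4.64 with the mimic. The siRNA arrays overlapped with NC1 1 to 3, and the mimic arrays lay with NC1 4 to 6 except mimic array 2. On that array the deposited value was the same to the last digit (4.93428) as on NC1 1 and NC1 3, for a reason not tested. DUSP4 was called higher with the siRNA against NC1 4 to 6 (log2 difference 0.40, SE 0.10, limma adjusted p = 0.0178), but not when siRNA array 2 or 3 or NC1 4 was left out (highest adjusted p = 0.0887). Against NC1 1 to 3 it was at 0.11 (limma adjusted p = 0.637), and the parts differed by -0.30 (limma adjusted p = 0.0901). With the mimic DUSP4 was at -0.12 against all NC1 arrays (limma adjusted p = 0.775).

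Counted over the 8 tested genes, 2 were called with the siRNA against all NC1 arrays (TGFA and DUSP5, both higher), where 4.01% of all genes were called. With the mimic 0 of 8 were called by limma, where 1.04% of all genes were called. There 2 had an unadjusted limma p under 0.05 and 1 (EREG) an exact permutation p under 0.05. No share over all genes was taken for these 2 thresholds, so nothing is read from them. For DUSP10, which the same contrasts chose, nothing is read from these shares. The median log2 difference over the 8 tested genes, DUSP10 left out, was 0.21 with the siRNA and 0.07 with the mimic, beside medians of all genes of -0.005 and -0.015. Against NC1 1 to 3 these medians were -0.02 and -0.11, beside -0.01 and -0.023 over all genes. Against NC1 4 to 6 they were 0.43 and 0.15, beside 0.005 and -0.005. The medians thus moved with the part of the control.

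These counts depended on the part of the control. Against NC1 4 to 6, 6 of 8 genes were called with the siRNA, 5 higher and EREG lower, where 11.4% of all genes were called. Against NC1 1 to 3, 0 of 8 were called by limma, where 5.7% of all genes were called. There 2 had an unadjusted limma p under 0.05, a threshold for which no share over all genes was taken. With the mimic 1 of 8 was called against NC1 4 to 6 (HBEGF, 3.49% of all genes) and 2 of 8 against NC1 1 to 3 (EREG higher and DUSP6 lower, 8.55% of all genes). NC1 4 to 6 differed from NC1 1 to 3 in 3 of 8 genes (HBEGF, DUSP1 and DUSP6, all lower), where 10% of all genes were called. Of the 9 measured genes 8 stood lower on NC1 4 to 6 than on NC1 1 to 3, with a median log2 difference of -0.30 beside -0.018 over all genes, and EREG alone stood higher (0.23, limma adjusted p = 0.102). The comparisons of both treatments with the same NC1 arrays share those arrays, so a likeness between them is not independent. The labels name no batch, and the source of the difference between the parts was not tested.

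**Figure D3:**
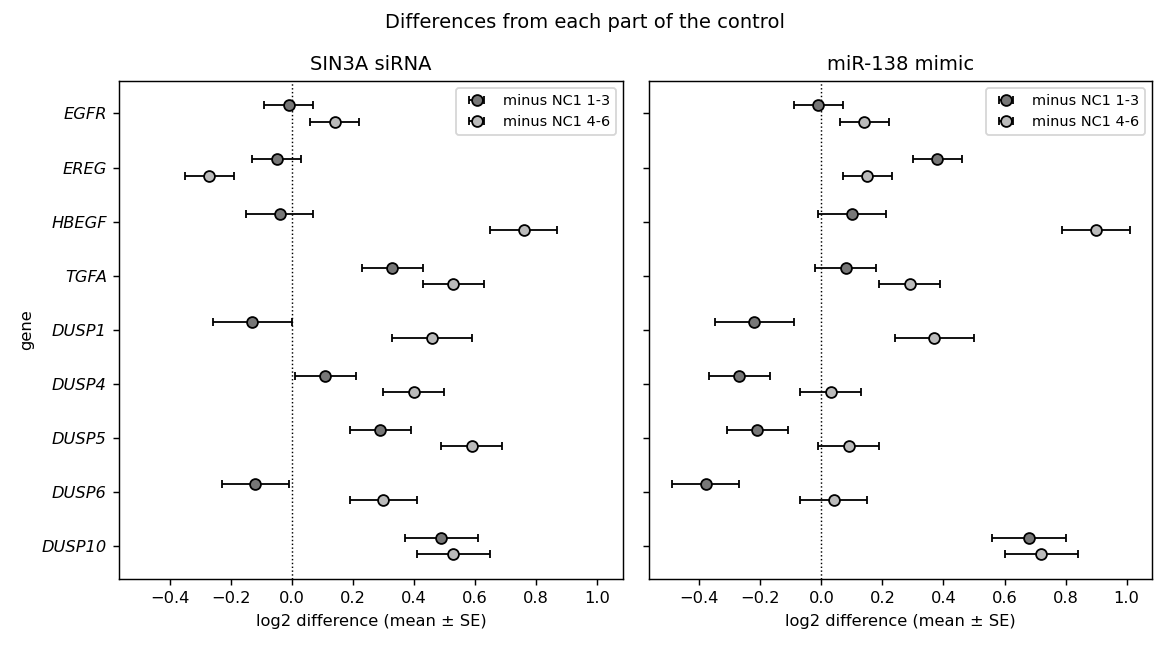
Log2 difference (x axis, mean and SE from the limma fit of 4 means) of the SIN3A siRNA (left) and the miR-138 mimic (right) from NC1 1 to 3 (dark) and NC1 4 to 6 (light) for the 9 measured genes (y axis). DUSP10 lay at 0.49 and 0.53 with the siRNA and at 0.68 and 0.72 with the mimic, while HBEGF lay at -0.04 and 0.76 and at 0.10 and 0.90.

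In the direct comparison of mimic and siRNA arrays 1 of 8 genes was called (EREG, higher with the mimic), where 1.57% of all genes were called. When the siRNA was first set against NC1 1 to 3 and the mimic against NC1 4 to 6, a pairing the labels do not state, the difference of these differences was called for HBEGF instead (0.94, SE 0.15, limma adjusted p = 0.00234), 1 of 8, where 2.09% of all genes were called. HBEGF itself was at 6.12 with the mimic and 5.98 with the siRNA, a difference of 0.14, beside -0.80 between the parts of the control.

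A further list of 77 genes of the same pathway was examined, of which 68 were measured. With the siRNA 2 of 68 rose and 3 fell, and with the mimic 2 rose and 2 fell, so 7.35% and 5.88% of the list were called, beside 4.01% and 1.04% of all genes. These shares moved with the control. With NC1 1 to 3 as the control, each treatment had 8.82% of the list called, beside 5.7% of all genes for the siRNA and 8.55% for the mimic. Against NC1 4 to 6 the siRNA had 17.6% called, beside 11.4% of all genes, and the mimic 7.35%, beside 3.49%. The parts of the control themselves differed in 7.35% of the list, beside 10% of all genes: ERBB2 (0.36), ERBB4 (0.50) and CBL (0.48) stood higher on NC1 4 to 6, and JUN (-0.52) and MYC (-0.44) lower. These 5 genes, ADAM17 and SPRY4 were named after their values were seen. The medians of the list were 0.011 and 0.009. Among 7 other ligand genes NRG1, which encodes a ligand of ERBB3 and ERBB4, fell with the siRNA: it was 5.62, 5.72 and 5.69 there and between 5.96 and 6.24 on the NC1 arrays (log2 difference -0.38, limma adjusted p = 0.0159). The receptors ERBB2, ERBB3 and ERBB4 and the 5 genes of ligand shedding were not called by limma with either treatment against all NC1 arrays. With NC1 4 to 6 alone as the control, the siRNA was called lower for ERBB2 (-0.38, limma adjusted p = 0.00900), ERBB4 (-0.46, limma adjusted p = 0.0135) and the sheddase gene ADAM17 (-0.48, limma adjusted p = 0.00236). It was called higher there for MYC (0.58, limma adjusted p = 0.00117), JUN (0.45, limma adjusted p = 0.00299) and SPRY4 (0.28, limma adjusted p = 0.0434). In that comparison 6 genes of the list were called higher and 6 lower. MYC was called lower with the mimic against NC1 1 to 3 (-0.35, limma adjusted p = 0.0434). Among 8 measured adaptors GRB2, which links the receptor to RAS, rose with the siRNA (6.93, 6.86 and 6.94, against 6.11 to 6.64 with NC1, log2 difference 0.47, limma adjusted p = 0.0218). MAP2K6, a kinase that activates p38, fell (4.96, 4.63 and 4.49, against 5.21 to 5.67, log2 difference -0.68, limma adjusted p = 0.0142), 1 of 12 measured kinases. The feedback inhibitor gene SPRY1 fell (-0.38, limma adjusted p = 0.0349) and the ETS factor gene ETV5 rose (0.44, limma adjusted p = 0.0178). Each of these 5 calls was lost without siRNA array 2 or without siRNA array 3, those of NRG1, GRB2 and SPRY1 also without siRNA array 1, and that of SPRY1 also without NC1 1, 5 or 6 or mimic array 2 or 3 (highest adjusted p 0.103 for MAP2K6, 0.0813 for NRG1, 0.0955 for ETV5, 0.106 for GRB2 and 0.163 for SPRY1). The call of ETV5 was also lost with further quantile normalization (0.38, adjusted p = 0.0833), and that of SPRY1 with arrays centred on their median (-0.36, adjusted p = 0.0540). SPRY1 was not called against NC1 1 to 3 alone (-0.34, limma adjusted p = 0.0758). The siRNA differences of the other 4 genes were called against both parts, at -0.31 and -0.46 for NRG1, 0.51 and 0.42 for GRB2, -0.54 and -0.83 for MAP2K6, and 0.34 and 0.55 for ETV5 (NC1 1 to 3, then NC1 4 to 6). With the mimic MAP2K6 was called against NC1 4 to 6 (-0.56, limma adjusted p = 0.0325) and not against NC1 1 to 3 (-0.28, limma adjusted p = 0.267). CBL, which encodes a ubiquitin ligase of EGFR, was called higher against NC1 1 to 3 alone, by 0.65 with the siRNA and 0.62 with the mimic (limma adjusted p = 0.000940 and 0.000634).

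With the mimic, ERRFI1 rose most in this list. It encodes MIG6, an inhibitor that binds the EGFR kinase. Its log2 level was 6.79, 6.73, 6.58, 6.61, 6.71 and 6.53 on NC1 1 to 6 and 7.41, 7.12 and 7.47 with the mimic. The mimic arrays lay above all NC1 arrays, and the siRNA arrays (6.92, 7.0 and 6.97) lay between them. The log2 difference with the mimic was 0.68 (SE 0.09, limma adjusted p = 0.00184), with 0.64 for NC1 1 to 3 and 0.72 for NC1 4 to 6 as the control, and the call held whichever array was left out (highest adjusted p = 0.0272). With the siRNA it was 0.31 (limma adjusted p = 0.0729), and 0.35 against NC1 4 to 6 alone (limma adjusted p = 0.0346). Between mimic and siRNA it was 0.37 (SE 0.10, limma adjusted p = 0.0865). Of the 5 other MAP kinase phosphatases DUSP16, known for acting on JNK, fell with the mimic (5.59, 5.73 and 5.87, against 6.03 to 6.39 with NC1, log2 difference -0.48, limma adjusted p = 0.0210). It was called against both parts of the control (-0.56 for NC1 1 to 3 and -0.40 for NC1 4 to 6). With the siRNA DUSP16 was at -0.32 against all NC1 arrays (limma adjusted p = 0.0699), called against NC1 1 to 3 (-0.40, limma adjusted p = 0.0257) and not against NC1 4 to 6 (-0.24, limma adjusted p = 0.152). The early response gene EGR1 fell (6.40, 6.23 and 6.64, against 6.80 to 7.09, log2 difference -0.50, limma adjusted p = 0.0184) and KLF6 rose (0.32, limma adjusted p = 0.0412), 2 of 18 measured early target genes. EGR1 was called against both parts (-0.56 and -0.43). The calls of DUSP16 and EGR1 were lost without mimic array 1 or 2 (highest adjusted p = 0.167 and 0.153). That of KLF6 was lost against NC1 4 to 6 alone (0.31, adjusted p = 0.0526) and without any array but NC1 1 or NC1 3 (highest adjusted p = 0.202).

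**Figure D4:**
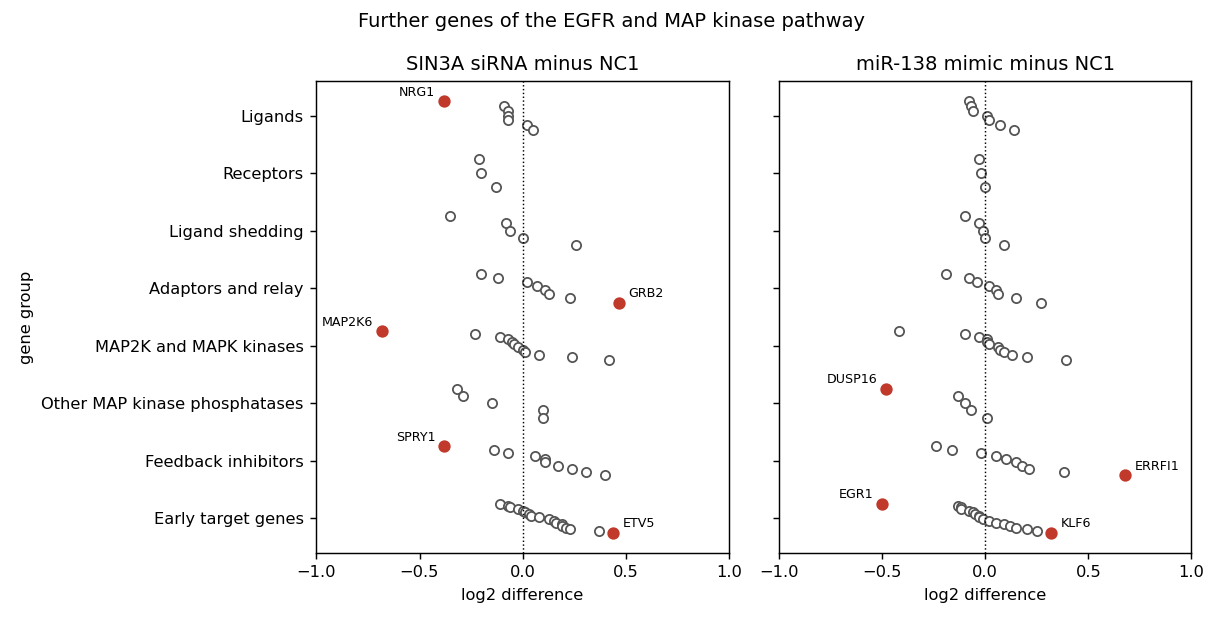
Log2 difference from all NC1 arrays (x axis) of the 68 measured further pathway genes, by gene group (y axis), with the siRNA (left) and the mimic (right). Filled points with names are genes called by limma at an adjusted p under 0.05, 5 with the siRNA and 4 with the mimic, and open points are the rest.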

How the data were processed

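The authors deposited log2 values, 1 per probe set and array, and the submitters' processing notes name RMA and Partek 6.3 without saying which step each did. They were used as deposited. Of 33297 probe sets 19460 carried 1 symbol, 1754 several and 12083 none, and the first gave 18417 genes. No depth exists for arrays, so their number limits the precision. The fit used limma 3.58.1 (R 4.3.3) on all 12 arrays, with 3 group means for contrasts with all NC1 arrays and 4 means (NC1 1 to 3 and 4 to 6 apart) for contrasts with a part. The latter fit equals one with the array set (NC1 1 to 3 with the siRNA, NC1 4 to 6 with the mimic) as a block. P-values were adjusted (Benjamini-Hochberg) over all genes, SEs and 95% intervals are those of the fit, and the fit was tested on simulated data. The simulated data held no difference between the parts of NC1. They therefore do not show how the fit to all NC1 arrays behaves when the parts differ. Named were the 10 genes, the 5 most correlated with DUSP10, and the called genes of the pathway list (at most 6 by adjusted p per treatment). Members, lists and the split of NC1 were chosen with earlier results of these data known. Alternatives covered control arrays, blocks, normalization, filter, probe sets, variance and left-out arrays.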

Additional observations from a re-analysis of the deposited data

Results flagged for a closer look

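EREG, the epiregulin gene, was flagged because it alone of the tested genes was called between the treatments. The miR-138 mimic arrays exceeded the SIN3A siRNA arrays by 0.43 on the log2 scale (limma adjusted p = 0.0455). The call was lost when any 1 siRNA or mimic array was left out and with the array set as a block (0.20, adjusted p = 0.516). All 3 mimic arrays lay above all siRNA arrays. HBEGF, TGFA, DUSP4, DUSP5 (-0.50, but -0.20 with the array set as a block) and DUSP6 also had groups without overlap, and no share over all genes was taken. The 6 NC1 arrays were also searched for a single array far from the others in each of 19 genes, where chance gives about 1 in 20, and 0 were found.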

How the results depend on the processing

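The number of arrays, 3 per treatment, limits all values, and none of these genes has a second probe set. The choice of control moved most: against NC1 1 to 3 alone 0 tested genes were called with the siRNA and 2 with the mimic (1575 of all genes), and against NC1 4 to 6 alone 6 and 1 (2106 and 642). With the siRNA, 1 was called after further quantile normalization (763 of all genes), and array weights gave 1449 genes. With the mimic, array weights gave 1 and 576. Between mimic and siRNA, 0 were called with arrays centred, 2 with dim probe sets left out and 2 with array weights. Array weights gave 5 between the parts of NC1 and 2 for the mimic against NC1 4 to 6. With such settings or with 1 array left out, no share over all genes was taken between treatments, between parts or against 1 part. Nothing is read from those counts. Leaving out dim probe sets gave 1 for each treatment against NC1 1 to 3. With the siRNA this was TGFA, newly called. With the mimic it was EREG alone, because DUSP6 was among the genes left out and was not tested. DUSP4 and DUSP6 had mean levels of 4.89 and 5.06, under the overall median of 5.10 used as the cut. Leaving out 1 array gave 0 to 2 tested genes and 165 to 1033 genes with the siRNA, 39 to 264 genes with the mimic, 0 to 2 tested genes between the treatments, 2 to 4 between the parts of NC1, 0 to 1 and 3 to 6 for the siRNA against NC1 1 to 3 and 4 to 6, and 1 to 2 for the mimic against NC1 1 to 3.

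Pairing of the arrays by replicate number was not seen in the pairs compared. Deviations of same-numbered arrays correlated between -0.08 and 0.05, and 4 of 9 were most alike in their own number. Of the NC1 arrays only 1 to 3 entered these pairs, so pairing of treated arrays with the other NC1 arrays was not tested. With the number as a replicate block, which takes in NC1 1 to 3 only, 0 tested genes were called with the siRNA (708 of all genes). With the mimic 1 was called (1281 of all genes), and between the treatments 2, for which no share over all genes was taken. The block also ended the siRNA calls of MAP2K6 (-0.54, adjusted p = 0.0658), NRG1 (-0.31, 0.10), ETV5 (0.34, 0.0796) and SPRY1 (-0.34, 0.157).

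Signs turned as follows, with causes not tested. With the siRNA, the block and NC1 1 to 3 alone each gave -0.01 for EGFR, -0.04 for HBEGF, -0.13 for DUSP1 and -0.12 for DUSP6. With the mimic, both gave -0.01 for EGFR and -0.22 for DUSP1, and NC1 4 to 6 alone gave 0.03 for DUSP4, 0.09 for DUSP5 (0.00 with array weights) and 0.04 for DUSP6. Between mimic and siRNA, the array set as a block gave 0.15 for EGFR (0.00 with quantile normalization), 0.49 for DUSP1 and 0.16 for DUSP6. Against NC1 1 to 3, EGFR was 0.01 with arrays centred for each treatment and 0.02 (siRNA) and 0.00 (mimic) with array weights, which gave 0.03 for HBEGF with the siRNA. With 1 array left out, ranges crossing 0 were 0.00 to 0.16 for DUSP1 (mimic against NC1), -0.03 to 0.04 for EGFR and -0.23 to 0.06 for DUSP1 (mimic against siRNA), -0.05 to 0.03 for EGFR, -0.13 to 0.03 for HBEGF and -0.28 to 0.01 for DUSP1 (siRNA against NC1 1 to 3), -0.04 to 0.03 for EGFR (mimic against NC1 1 to 3), and -0.07 to 0.08 for DUSP4 and -0.04 to 0.12 for DUSP6 (mimic against NC1 4 to 6).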
